A study of Bos taurus with 20 samples.

Results

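Histone genes were taken as all non-control probes of a custom bovine Agilent microarray whose gene name began with HIST1H, HIST2H, HIST3H, H1F, H2AF, H2BF or H3F. The rule found 114 of 61325 probes, which belonged to 37 of 22550 gene names and 48 of 26944 transcripts. No name began with H2BF. By their names, 22 were replication-dependent core histones (7 of H2A, 6 of H2B, 4 of H3 and 5 of H4), 7 were linker histones (4 replication-dependent and 3 variants) and 8 were variant core histones. The cells came from antral follicles of 3 to 6 mm of bovine ovaries obtained after slaughter, in 5 groups of 4 arrays. Theca cells (TH) were scraped from the follicle wall, granulosa cells (GC) line its inside, cumulus cells (CC) surround the oocyte, and the oocyte is the germ cell. These 4 groups were labelled immature, with no treatment. The fifth group was CC taken after 4 h of in vitro maturation (IVM) of the cumulus-oocyte complex. Neither the age nor the breed of the animals was given in the sources used here, and no group carried a transgene or deletion.

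Histones are the proteins on which DNA is wound in the nucleus. Core histones H2A, H2B, H3 and H4 form the nucleosome, and linker histone H1 binds the DNA where it enters and leaves. Most are made from clustered replication-dependent genes, which are transcribed in S phase. Their mRNA normally ends in a stem-loop in place of a poly(A) tail. Variants such as H2A.Z, macroH2A and H3.3 are made from genes of their own, with polyadenylated mRNA through the whole cell cycle. The mammalian oocyte does not replicate DNA but stores histones and their mRNA for the embryo, and it has a linker histone of its own, H1FOO.

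On these arrays 49.3 to 68.8% of probes were well above background in oocytes, against 56.7 to 62.8% in TH, GC and CC and 54.2 to 58.3% in CC after IVM. Oocyte replicate 2 had the lowest share, and its lowest signals lay higher than those of the other oocyte arrays. All 6 oocyte markers were above background on all oocyte arrays, but also on all 4 CC arrays. CYP17A1, a theca marker, was above background on 1 GC array and on no array of CC or oocytes. The other theca markers of the list, INSL3, COL1A1, COL1A2 and ACTA2, were above background on all 4 GC and all 4 CC arrays. In oocytes, INSL3, COL1A2 and ACTA2 were above background on all 4 arrays and COL1A1 on 2. Of the granulosa and cumulus markers, FSHR, AMH and INHBA were above background on all 4 TH arrays and CYP19A1 on 2. On the log2 scale the theca list summed to 9.17 to 9.70 in TH and to 4.90 to 6.84 in GC. The granulosa and cumulus list summed to 4.18 to 5.06 in TH and to 6.79 to 8.82 in GC. HAS2, a gene of cumulus expansion listed as a cumulus marker, was above background on all 4 oocyte arrays and lay 6.26 above the somatic mean there. The oocyte list summed to 7.95 to 8.37 on the log2 scale in oocytes, to -0.83 to 1.59 in CC, to -1.45 to -0.58 in TH and to -2.49 to -1.32 in GC. The study calls the samples biological replicates, but the labels do not say how many animals each held, so p-values measure only the spread between these samples, which may be partly technical. Each array held RNA of many cells, in which fewer cells of a type and less RNA per cell cannot be told apart. The labelling kit copies RNA from its poly(A) tail, and how much RNA without a tail was copied was not tested. PTPRC and HBB, which mark blood cells, both gave signal above background on every TH array, and PTPRC did so on no other array.

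Levels are log2 processed signals relative to the 75th percentile of each array, so that 0 is the signal that 25% of probes exceeded. A level says nothing about one probe against another, and only differences of the same probes between groups were compared. A gene was said to rise or fall at an adjusted p under 0.05 in limma, fitted over all 22550 genes.

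Of the 37 histone genes, 20 rose and 14 fell in the oocyte relative to the 3 somatic cell types averaged. Over all genes, 32.9% rose and 38.3% fell. The median difference of the histone genes was 0.72, against -0.52 over all genes. The 4 oocyte arrays lay above all 12 arrays of TH, GC and CC for 18 histone genes and below them for 13, which happened for 25.3% and 20.6% of all genes. By class, 15 of the 22 replication-dependent core genes rose and 5 fell (median 1.28), whereas 5 of the 8 variant core genes fell and 2 rose (median -2.86). Of the 7 linker genes, 3 rose and 4 fell. The moderated F-test over the 4 cell types called 35 of the 37, against 71.3% of all genes.

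**Figure D1:**
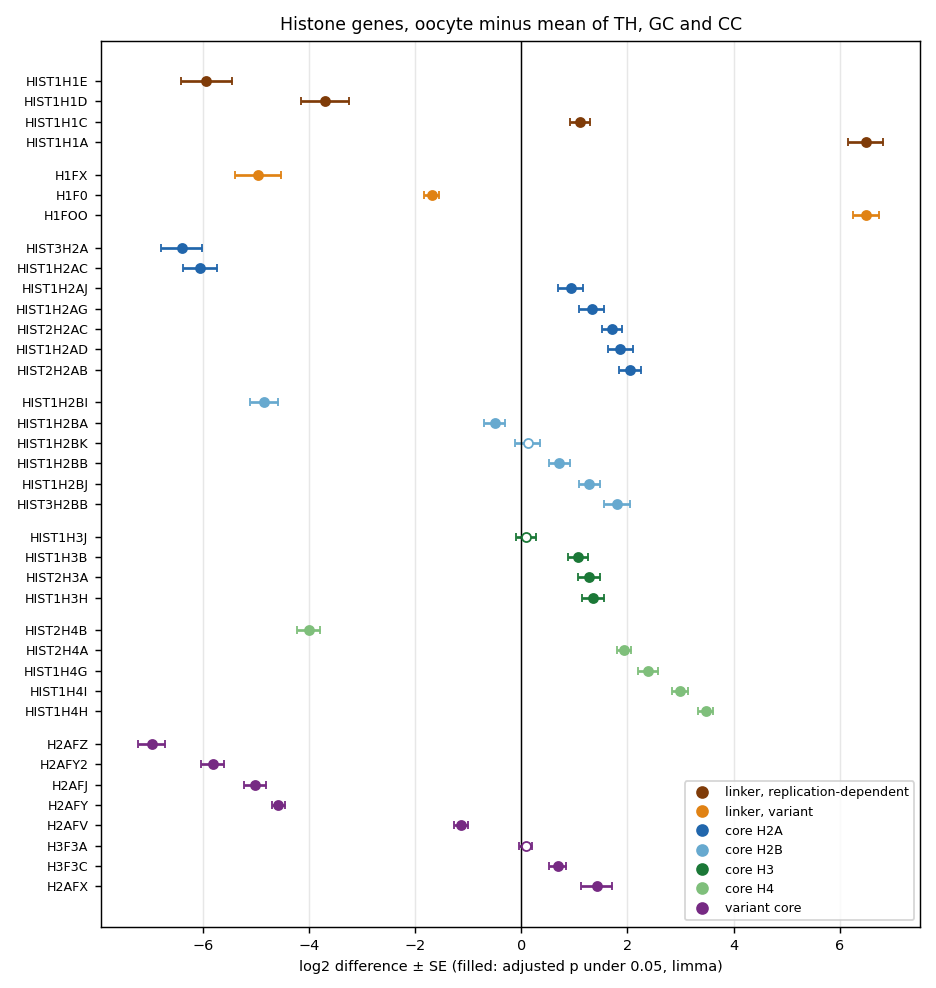
Log2 difference of each of the 37 histone genes between the oocyte and the average of TH, GC and CC, with the standard error of the limma fit (4 arrays per group); filled points have an adjusted p under 0.05. Core H3 and H4 genes lie to the right except HIST2H4B, whereas H2AFZ, H2AFY2, H2AFJ and H2AFY lie furthest left among the variant core genes.

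The largest rises of all histone genes were those of 2 linker genes, H1FOO and HIST1H1A. H1FOO encodes the linker histone specific to the oocyte, and HIST1H1A encodes H1.1, a replication-dependent linker. The probes are shown because they carried the 2 largest rises, and none of the 18 linker probe sequences came within 6 mismatches of a probe of another name. H1FOO lies at chr22:56829078-56860068 and HIST1H1A at chr23:31674090-31674743 (build bosTau6, UMD 3.1; the files give the span of the transcript model but no strand or exon borders). All 4 are in lower case throughout.
H1FOO probe 1: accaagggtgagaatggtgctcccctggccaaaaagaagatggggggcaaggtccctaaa
H1FOO probe 2: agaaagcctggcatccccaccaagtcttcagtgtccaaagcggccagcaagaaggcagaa
HIST1H1A probe 1: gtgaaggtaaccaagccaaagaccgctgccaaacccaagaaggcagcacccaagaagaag
HIST1H1A probe 2: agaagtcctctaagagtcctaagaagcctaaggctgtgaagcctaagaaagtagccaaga

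H1FOO lay at 2.80, 2.55, 2.64 and 2.70 in the 4 oocyte arrays. It lay at -2.45, -3.53, -2.81 and -3.58 in TH, at -4.19, -4.34, -4.44 and -5.02 in GC and at -3.88, -4.57, -3.98 and -3.10 in CC. All oocyte arrays were above all somatic arrays. The difference was 6.50 ± 0.25 (SE, limma adjusted p = 2e-12), and it was 4.50 at probe 1 and 8.50 at probe 2. H1FOO was also higher in TH than in GC by 1.41 ± 0.31 (SE, limma adjusted p = 0.0028), with the 4 TH arrays all above the 4 GC arrays. Of the 6 oocyte markers, ZP2, a protein of the egg coat, was higher in TH than in GC as well, by 2.70 ± 0.54 (SE, limma adjusted p = 0.0014), whereas the differences of the other 5 lay between -0.44 (BMP15) and 0.36 (ZP3) and did not pass the test. GDF9, a growth factor of the oocyte, was above background on no TH array. BMP15, ZP2 and ZP3 were above background on all 4 TH arrays, and ZP4 and NLRP5 on 3. The part of oocyte RNA in the TH value was not tested. After IVM, H1FOO in CC lay at -4.22, -4.40, -4.85 and -4.92, and its difference from CC did not pass the test (-0.72 ± 0.31, limma adjusted p = 0.086).

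Over the 16 arrays of the 4 cell types, the genes whose levels followed H1FOO most closely outside the histones were ARMC2 (Pearson r = 0.993), CNBD2 (0.993), MGC152321 (0.993), ABCG4 (0.992) and AP1M2 (0.992). Each of the 5 was high in oocytes and low elsewhere, and the 4 arrays of a group are not independent points, with oocyte differences from 4.17 (ABCG4) to 9.17 (CNBD2).

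HIST1H1A lay at 6.13, 5.68, 6.13 and 6.07 in oocytes, at -2.03, -0.48, -2.29 and -1.86 in TH, at -0.43, -0.44, -1.15 and 0.67 in GC and at 0.17, 0.25, 1.27 and 0.45 in CC. The oocyte arrays were far above the rest, and TH was lowest on average. The difference was 6.49 ± 0.33 (SE, limma adjusted p = 5.6e-11), and HIST1H1A was lower in TH than in CC by 2.20 ± 0.41 (limma adjusted p = 0.00055), the largest TH to CC difference of any histone gene. HIST1H1C (H1.2) rose by 1.11 ± 0.19 (SE, limma adjusted p = 7.4e-05). It lay between 3.25 and 3.61 in oocytes and between 1.24 and 2.99 in the somatic cells, without overlap.

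HIST1H1D (H1.3) was well above background on no oocyte array, on 3 of 4 TH arrays and on all GC and CC arrays. It lay at -5.08, -5.26, -4.47 and -5.69 in TH, at -1.85, -3.12, -3.11 and -4.35 in GC and at -3.87, -4.87, -4.18 and -3.71 in CC, and at -8.80, -6.19, -8.44 and -7.92 in oocytes. The somatic level was thus at least 3.41-fold higher, a bound set against the lowest signal above background on each oocyte array (limma adjusted p = 2e-06). TH was lower than GC by 2.02 ± 0.55 (limma adjusted p = 0.013).

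The name HIST1H1E (H1.4) covered 3 transcripts of chromosome 23 that did not move together. The transcript at chr23:31530243-31531841 lay at -2.32, -3.30, -1.45 and -1.68 in TH, -2.24, -3.05, -3.23 and -1.96 in GC and -2.21, -0.87, -1.92 and -0.51 in CC, and was well above background on no oocyte array, which put the oocyte at least 14.3-fold below (limma adjusted p = 1.4e-08). The transcript at chr23:31556336-31556992 went the other way. It lay at 3.99, 3.60, 3.64 and 3.76 in oocytes against 0.75, 1.17, 0.73 and 0.59 in TH, 2.00, 1.14, 1.73 and 1.74 in GC and 1.03, 1.21, 2.05 and 1.42 in CC, a rise of 2.45 ± 0.19 (SE, limma adjusted p = 1.1e-08). The third transcript, chr23:31530230-31531841, named H1-12 in RefSeq, covers the span of the first but has other probes, and was above background on no array. The gene-level value of HIST1H1E was called lower, as the first transcript was, and hides the rise of the other. A probe of the transcript that rose is shown because the gene-level value hides it. It is in lower case throughout.
HIST1H1E chr23:31556336-31556992 probe 2: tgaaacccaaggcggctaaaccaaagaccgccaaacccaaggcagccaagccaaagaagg

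The other linker variants fell. H1F0, the linker of resting and differentiated cells, lay at 0.76, 1.09, 0.57 and 0.98 in oocytes and between 2.05 and 2.76 on all somatic arrays. It fell by 1.70 ± 0.14 (limma adjusted p = 2.3e-08). H1FX (H1.10) lay at -4.82, -6.33, -6.61 and -5.48 in oocytes, above background on 3 of the 4 arrays, and between -1.80 and 0.72 in the somatic cells. It fell by 4.97 ± 0.43 (limma adjusted p = 3.6e-08). Neither overlapped with the somatic arrays.

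**Figure D2:**
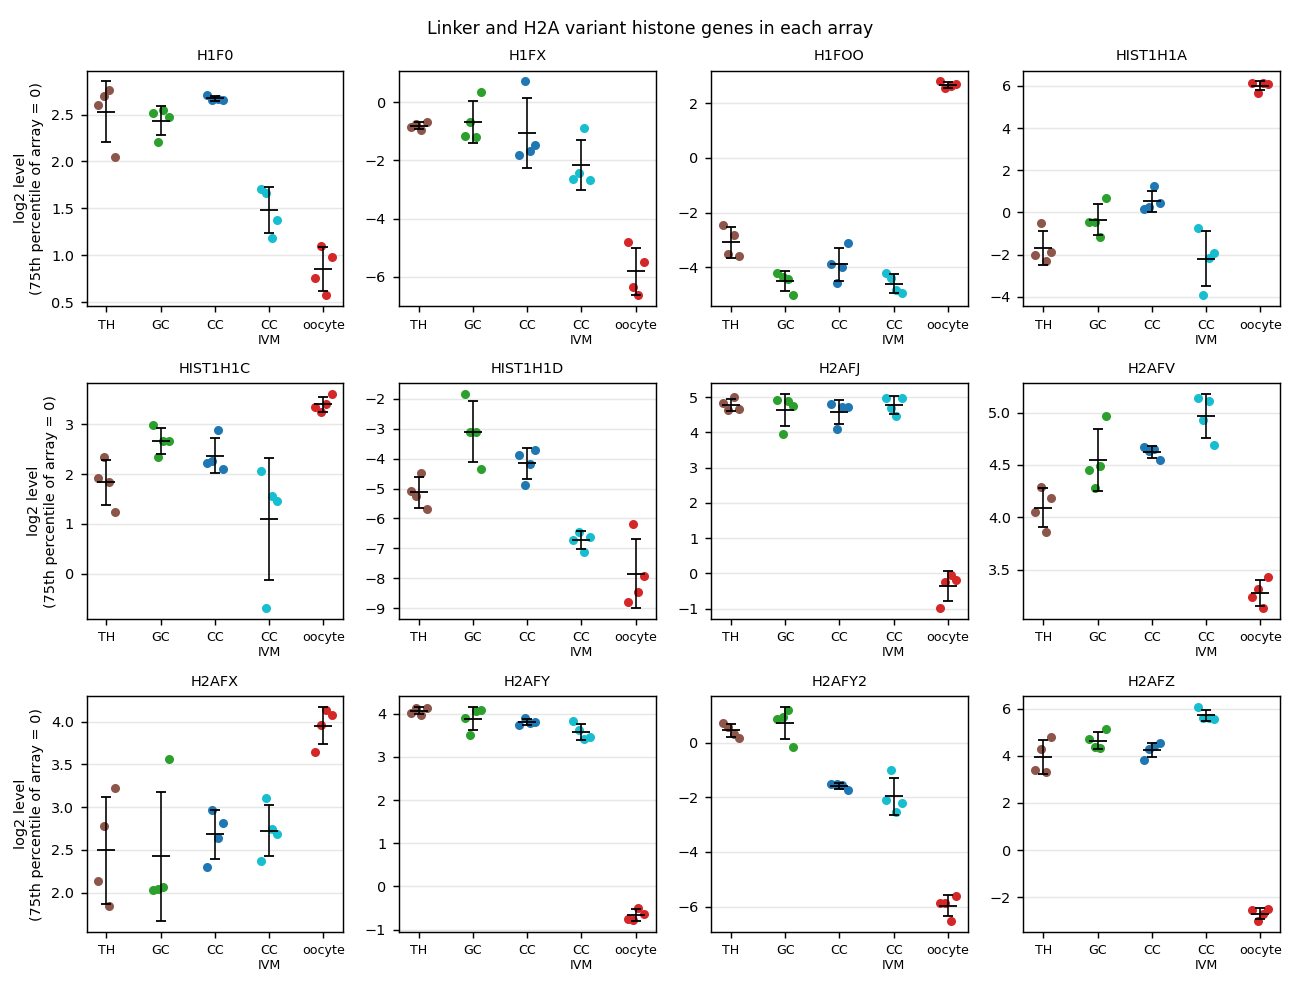
Log2 level per array (points) with mean and SD of 4 arrays (black) for 6 linker genes and the 6 H2A variant genes in TH, GC, CC, CC after IVM and oocytes; 0 is the 75th percentile of the array and each panel has its own scale. Oocyte points lie above all others for H1FOO and HIST1H1A, near 2.67 and 6.00 on average, and below them for H2AFZ, near -2.69.

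The largest fall was that of H2AFZ, which encodes H2A.Z, the variant found at promoters and boundaries. Its probes, from the gene at chr6:26103022-26104344, are shown because both moved alike and neither came within 20 mismatches of a probe of another name over at least 50 bases. They are in lower case throughout.
H2AFZ probe 1: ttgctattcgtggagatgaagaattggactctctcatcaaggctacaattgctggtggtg
H2AFZ probe 2: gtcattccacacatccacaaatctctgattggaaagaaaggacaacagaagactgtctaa

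H2AFZ lay at -2.56, -3.01, -2.72 and -2.48 in oocytes, at 3.39, 4.29, 3.29 and 4.78 in TH, at 4.71, 4.37, 4.35 and 5.15 in GC and at 3.81, 4.27, 4.40 and 4.53 in CC. The oocyte difference was -6.97 ± 0.25 (SE, limma adjusted p = 8.6e-13), with differences of -6.88 at probe 1 and -7.07 at probe 2. It was above background on all oocyte arrays. H2AFV, its paralog, which encodes H2A.Z.2, lay at 3.24, 3.31, 3.13 and 3.43 in oocytes and between 3.86 and 4.97 in the somatic cells, a fall of 1.14 ± 0.13 (limma adjusted p = 9.6e-07). Both genes had all oocyte arrays below all somatic arrays.

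H2AFY and H2AFY2 encode macroH2A1 and macroH2A2, variants with a large globular domain that are linked to silent chromatin. H2AFY lay at -0.76, -0.79, -0.49 and -0.63 in oocytes, at 4.01, 4.13, 3.98 and 4.14 in TH, at 3.89, 3.51, 4.06 and 4.09 in GC and at 3.73, 3.91, 3.79 and 3.80 in CC. Its fall of 4.59 ± 0.12 had the smallest adjusted p of the histone genes (limma adjusted p = 3.2e-14). H2AFY2 lay at -5.87, -5.87, -6.52 and -5.62 in oocytes, above background on 3 of 4 arrays, at 0.71, 0.55, 0.32 and 0.18 in TH, at 0.85, 0.95, 1.18 and -0.16 in GC and at -1.53, -1.53, -1.54 and -1.75 in CC. Here CC stood between the oocyte and the other cells, and among these 4 groups only TH and GC overlapped. The oocyte difference was -5.82 ± 0.21 (SE, limma adjusted p = 1.2e-12). H2AFY2 was higher than in CC by 2.03 ± 0.26 (SE, limma adjusted p = 1.9e-05) in TH and by 2.29 ± 0.26 (SE, limma adjusted p = 6.6e-05) in GC.

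H2AFJ, a mammalian H2A variant, lay at -0.98, -0.25, -0.03 and -0.19 in oocytes whereas TH averaged 4.78 ± 0.17, GC 4.63 ± 0.45 and CC 4.58 ± 0.34 (SD, n = 4), without overlap, a fall of 5.03 ± 0.21 (limma adjusted p = 4.7e-12). H2AFX, whose product is phosphorylated at DNA breaks, was the only H2A variant of the 6 that rose. It lay at 3.64, 3.96, 4.13 and 4.07 in oocytes, at 2.14, 2.78, 1.84 and 3.22 in TH, at 2.03, 2.04, 2.07 and 3.56 in GC and at 2.30, 2.97, 2.64 and 2.82 in CC, a rise of 1.42 ± 0.29 (SE, limma adjusted p = 0.00036). The oocyte arrays stayed above the highest somatic array, GC replicate 4, which stood apart from the other GC arrays.

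The names H3F3A and H3F3C each covered 2 loci. H3F3A encodes H3.3, which replaces H3 outside S phase. Under H3F3A, the transcript at chr16:29832591-29840787, named H3-3A in RefSeq, fell, and the one at chr19:56453856-56455637, named H3-3B, rose. Under H3F3C, the transcripts at chr16:31417942-31421544, named H3-3D in RefSeq, and chr14:21033277-21034329, named H3-5, both rose. The opening 30 bases of a chromosome 19 probe and a chromosome 14 probe are shown because the probes differ at only 2 of 60 bases, given in capitals, so that these 2 loci may share signal at this probe.
H3F3A chr19:56453856-56455637 probe 1: gctttttcaagggtgaagatacaagtctta
H3F3C chr14:21033277-21034329 probe 2: gctttttcaGgAgtgaagatacaagtctta

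The H3-3A transcript lay at 5.14, 4.99, 5.06 and 5.06 in oocytes, at 6.01, 5.80, 5.90 and 5.83 in TH, at 6.19, 6.08, 6.11 and 5.86 in GC and at 5.79, 5.86, 5.79 and 5.78 in CC. All oocyte arrays were lower, by 0.86 ± 0.10 (limma adjusted p = 1.9e-06, fitted over transcripts). The H3-3B transcript lay at 5.19, 4.94, 4.95 and 4.96 in oocytes, at 3.82, 3.90, 3.82 and 3.64 in TH, at 4.61, 4.12, 4.51 and 4.39 in GC and at 4.00, 4.71, 4.60 and 4.77 in CC. All oocyte arrays were higher here, by 0.77 ± 0.15 (SE, limma adjusted p = 0.00024). The gene-level difference of H3F3A, 0.08 ± 0.12 (limma adjusted p = 0.54), averages the 2. H3F3C rose by 0.68 ± 0.15 (SE, limma adjusted p = 0.0009), from between 2.33 and 3.48 in the somatic cells to 3.81, 3.56, 3.54 and 3.51 in oocytes, without overlap. H3F3C was lower in TH than in GC by 0.59 ± 0.19 (limma adjusted p = 0.029) and lower than in CC by 0.70 ± 0.19 (limma adjusted p = 0.0088).

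**Figure D3:**
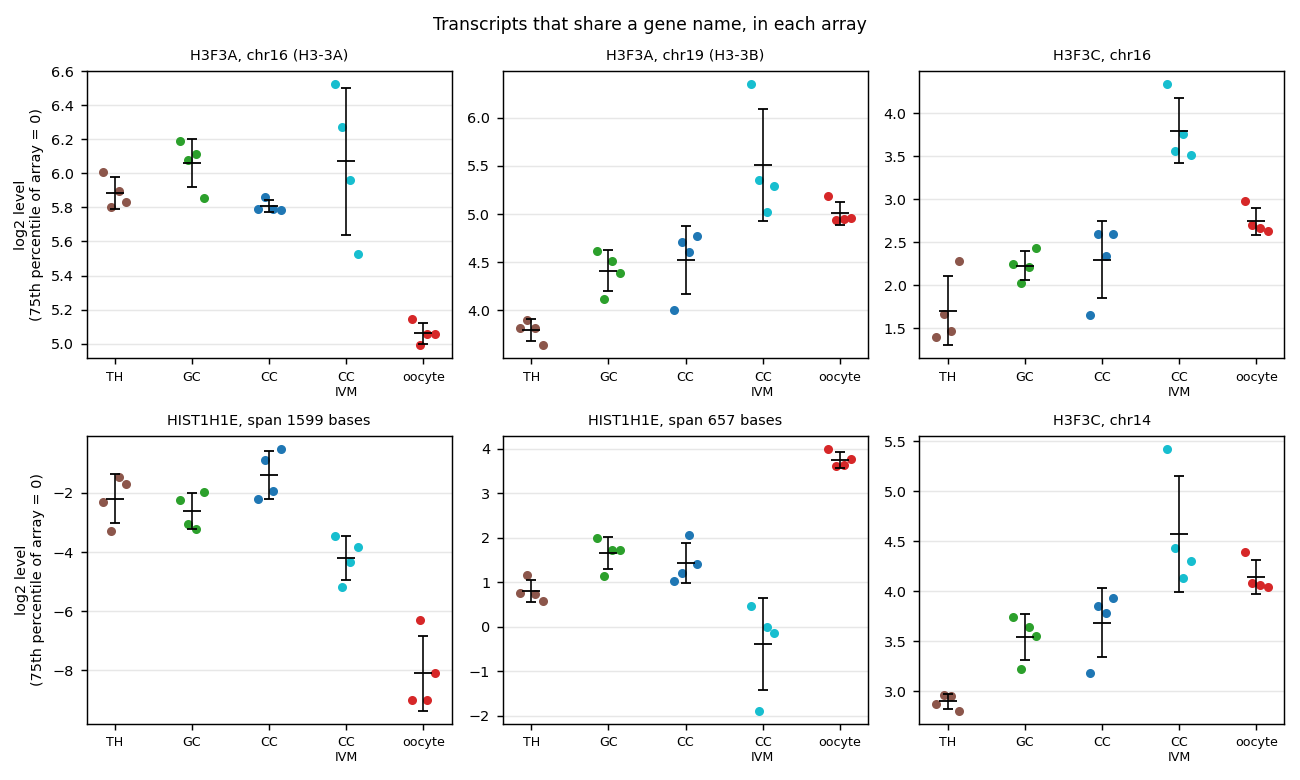
Log2 level per array (points) with mean and SD of 4 arrays (black) for transcripts that share a gene name, in TH, GC, CC, CC after IVM and oocytes; 0 is the 75th percentile of the array and each panel has its own scale. The chromosome 16 and chromosome 19 transcripts of H3F3A move in opposite directions in the oocyte, by -0.86 and 0.77, as do the HIST1H1E transcripts spanning 1599 and 657 bases, of which the first was above background on no oocyte array and the second rose by 2.45.

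The 3 core histone genes that rose most were H4 genes. Many H4 and H3 genes are near-identical copies, so that their probes can share targets. Of the 9 distinct H4 probe sequences, 5 came within 6 mismatches of a probe of another name over at least 50 bases, and of the 8 H3 sequences 7 did. Of all 94 histone probe sequences, 6 were identical to a probe of another name and 28 came within 6 mismatches. The H4 probes below show how close the copies are, with capitals for bases that differ from HIST1H4H in the stretch they share (50 bases for the probes 2, which are offset, and 59 for the probes 1). The second HIST1H4H probe is identical to the second HIST1H4I probe, so those 2 genes are not independent. HIST1H4G, at chr6:67068197-67069074, is not such a close copy, as its probe 2 differs from that of HIST1H4H at 25 of 60 bases. HIST1H4H lies at chr23:31669663-31669974 and HIST2H4A at chr23:31485395-31485706.
HIST1H4H probe 1: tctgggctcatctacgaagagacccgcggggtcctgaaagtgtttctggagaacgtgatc
HIST2H4A probe 1: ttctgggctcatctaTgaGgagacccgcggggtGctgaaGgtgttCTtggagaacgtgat
HIST1H4H probe 2: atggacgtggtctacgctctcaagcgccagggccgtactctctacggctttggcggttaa
HIST2H4A probe 2: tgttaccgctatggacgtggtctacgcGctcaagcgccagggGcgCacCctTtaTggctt

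HIST1H4H lay at 5.50, 5.17, 5.11 and 5.35 in oocytes, at 2.18, 2.32, 1.93 and 1.83 in TH, at 1.70, 1.49, 1.62 and 1.95 in GC and at 1.49, 1.78, 1.96 and 1.45 in CC, and rose by 3.47 ± 0.14 (SE, limma adjusted p = 3.5e-12). HIST1H4I lay between 5.61 and 5.96 in oocytes and between 2.42 and 3.28 in the somatic cells, and rose by 3.00 ± 0.15 (SE, limma adjusted p = 4.2e-11). HIST1H4G lay at 0.10, -0.14, -0.34 and -0.01 in oocytes and between -2.95 and -1.91 in the somatic cells, and rose by 2.39 ± 0.19 (SE, limma adjusted p = 1.1e-08). None of these groups overlapped. HIST2H4A rose by 1.93 ± 0.13 (SE, limma adjusted p = 2.5e-09). HIST2H2AB, an H2A gene of the cluster on chromosome 3, rose by 2.05 ± 0.21 (SE, limma adjusted p = 2e-07), from between 2.25 and 3.92 to 5.41, 4.91, 4.93 and 5.15. Both kept their oocyte arrays above the somatic arrays.

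The H3 genes HIST1H3B, HIST1H3H and HIST2H3A, named after their values were seen, rose by 1.07, 1.35 and 1.27, with oocyte arrays above the somatic arrays for each. Their probes are nearly the same, as the aligned sequences show with capitals for bases that differ from HIST1H3B (2 for HIST1H3H and 4 for HIST2H3A), so the 3 values may share targets. They lie at chr23:31654044-31654454, chr23:31497480-31497890 and chr3:20823726-20824139.
HIST1H3B probe 2: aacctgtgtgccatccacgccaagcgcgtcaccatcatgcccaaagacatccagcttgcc
HIST1H3H probe 1: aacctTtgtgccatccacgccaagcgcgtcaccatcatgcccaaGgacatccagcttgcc
HIST2H3A probe 2: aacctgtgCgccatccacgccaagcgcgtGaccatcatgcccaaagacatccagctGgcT

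HIST1H3J, the fourth H3 gene, did not pass the test (0.09 ± 0.19, limma adjusted p = 0.68), but its 2 probes, from chr23:31463932-31464342, were called in opposite directions. Probe 1 rose by 1.14 (limma adjusted p = 0.0039, fitted over probes) and probe 2 fell by 0.96 (limma adjusted p = 1.3e-05). Both were above background on all 20 arrays and hold 60.0% GC. The sequence of probe 1 also stands on the array under another transcript. The probes, in lower case, are shown because the same short gene gave both directions.
HIST1H3J probe 1: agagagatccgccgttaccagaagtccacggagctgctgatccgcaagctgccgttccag
HIST1H3J probe 2: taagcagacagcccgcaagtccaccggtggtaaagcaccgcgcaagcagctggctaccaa

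Of the 5 core genes that fell, 4 had all oocyte arrays below the somatic arrays. HIST3H2A lay at -2.07, -2.53, -2.23 and -3.19 in TH, at 0.91, 0.15, 0.27 and -0.58 in GC and at 0.07, -1.82, -0.62 and -1.56 in CC. It was well above background on no oocyte array (-7.95, -6.29, -7.68 and -8.12), so that it was at least 27.9-fold lower there (limma adjusted p = 3.9e-10). The GC arrays were above the TH arrays without overlap, by 2.69 ± 0.47 (limma adjusted p = 0.00047), the largest TH to GC difference of any histone gene. HIST1H2AC lay at -0.52, -0.78, -1.07 and -0.99 in TH, at -1.31 ± 0.50 (mean and SD, n = 4) in GC and at -2.37, -2.80, -2.60 and -1.92 in CC. It too was well above background on no oocyte array (-8.63, -6.25, -7.81 and -7.68) and was at least 20.8-fold lower there (limma adjusted p = 9.3e-11). TH was above CC for HIST1H2AC by 1.58 ± 0.40 (SE, limma adjusted p = 0.0057), again without overlap.

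HIST1H2BI lay between -3.16 and -1.29 in the somatic cells and at -7.94, -6.21, -6.89 and -7.12 in oocytes, above background on 1 oocyte array, a fall of 4.85 ± 0.26 (limma adjusted p = 1e-10). As most of these oocyte levels were not above background, the size of this fall is uncertain. HIST2H4B lay between -3.04 and -0.99 in the somatic cells and at -6.62, -6.18, -5.99 and -6.00 in oocytes, above background on 3 arrays, a fall of 4.02 ± 0.22 (limma adjusted p = 1.2e-10). Neither gene's oocyte arrays overlapped with the somatic arrays. HIST1H2BA, an H2B gene of the testis, named after its values were seen, fell by 0.51 ± 0.20 (limma adjusted p = 0.037), with overlap between the groups. HIST1H2BK did not pass the test in limma, and its 2 probes were called in opposite directions, one rising by 1.29 and the other called lower but above background on 1 of the 20 arrays.

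The direction of the replication-dependent transcripts followed the length of the transcript model and the base composition of the probes. With a limit of 900 bases chosen after the values were seen, and therefore with no test, 8 of the 9 longer models were above background, of which 2 rose (HIST1H2BJ and HIST1H2BB) and 6 fell, with a median difference of -4.43, or -3.93 with the 4 that were above background on no oocyte array set to their bound. Of the 26 shorter models, 23 rose and 1 fell (HIST1H2BA), with a median of 1.37. These models are not independent. Besides the H3 and H4 probes, 11 of the 27 H2A probe sequences came within 6 mismatches of a probe of another name, and some HIST1H2AG models hold the same probe. Averaged per transcript, probes of the 25 transcripts that rose held 43.3 to 60.0% GC (median 56.7%). Those of the 7 that fell held 35.8 to 41.7% (median 40.0%), with no overlap of these averages. Single probes did overlap. HIST2H4B probe 1, with 45.0% GC, fell by 4.11, and HIST1H2BB probe 1, with 41.7% GC, rose by 1.18. The longer models that rose, HIST1H2BJ and HIST1H2BB, had probes of 57.5% and 43.3% GC on average, and the shorter one that fell, HIST1H2BA, of 41.7%. The part of probe composition or of model length in these differences was not tested. Among the variants, probes poor in GC went both ways, with H2AFX at 35.0% rising and H2AFV at 34.2% falling. Richer probes did too, with those of H1FOO at 55.0% rising and those of H2AFJ at 51.7% and 55.0% falling.

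**Figure D4:**
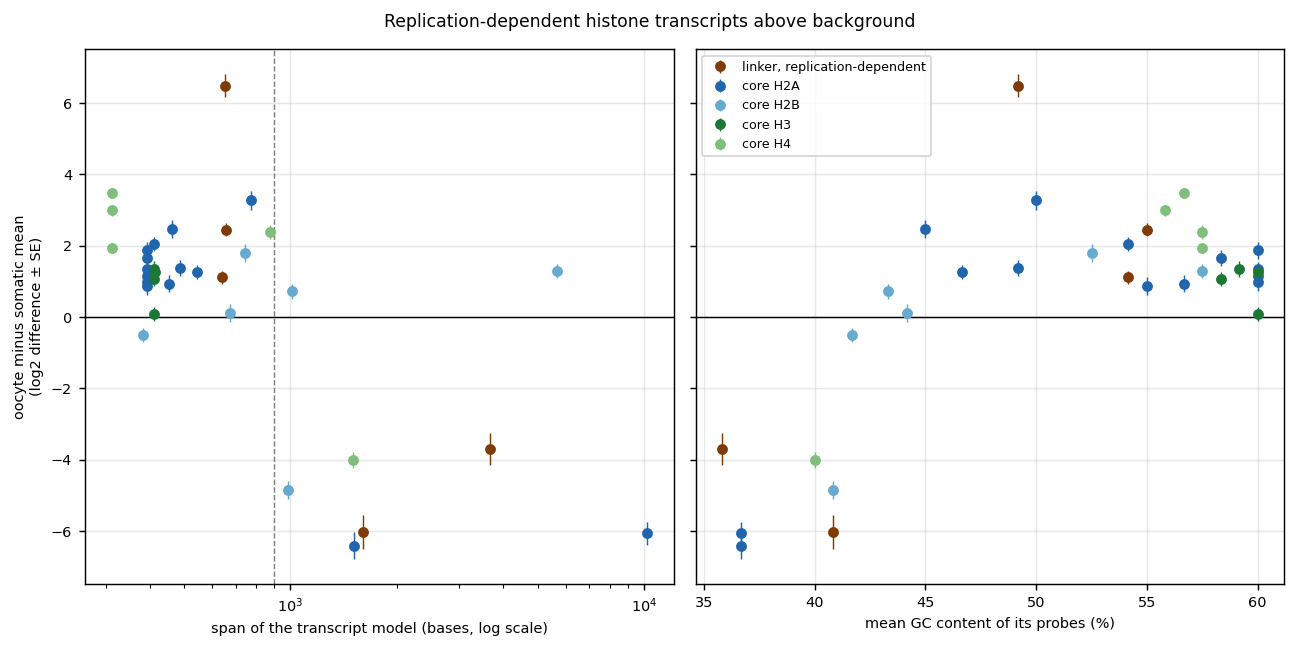
Log2 difference between the oocyte and the average of TH, GC and CC, with the standard error, for each replication-dependent histone transcript above background, against the span of its transcript model in bases on a log axis (left; dashed line at 900) and the mean GC content of its probes in % (right). All 7 transcripts called lower have a mean probe GC content of at most 41.7%, 6 of them with models longer than 900 bases, and the highest point is HIST1H1A at 6.49.

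Few histone probes held a sequence of an mRNA end. The histone stem-loop sequence, with any base at 1 place in its loop, was present in 3 of the 94 histone probe sequences and in 4 of the 50909 probe sequences of the array, on the strand of the probe in each and on the opposite strand in none. The 3 windows of 30 bases are shown with the stem-loop in capitals. The 2 HIST1H2AG probes rose in the oocyte by 2.06 and 2.50 (limma adjusted p = 1.3e-07 for each, fitted over probes). The HIST2H2AC probe, which also holds the poly(A) signal AATAAA after the stem-loop, changed by 0.32 (limma adjusted p = 0.16), whereas the other probe of that transcript, inside the gene, rose by 2.22 (limma adjusted p = 1e-07).
HIST1H2AG chr23:30761086-30761573 probe 2: tcaaaccaaaGGCTCTTTTCAGAGCCactt
HIST1H2AG chr23:31461683-31462143 probe 1: ttttacccaaaGGCTCTTTTAAGAGCCatc
HIST2H2AC chr3:20804199-20804743 probe 2: atcaaaaGGCTCTTTTCAGAGCCacccacg

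The poly(A) signals AATAAA and ATTAAA were present in 3.19% and 4.26% of histone probe sequences on the probe's strand, against 7.97% and 3.08% of all probe sequences. On the opposite strand they were in 6.38% and 2.13% of histone and 3.15% and 2.13% of all sequences. Of the histone probes with a signal on their own strand and no stem-loop, those of HIST1H2AC, HIST3H2A and HIST1H2BK were called lower in the oocyte and those of H2AFX rose by 1.39 and 1.44. HIST1H2AC and HIST3H2A have only the bounds given above, and the HIST1H2BK probe was above background on 1 of the 20 arrays. Windows of 30 bases are shown with the signal in capitals, from chr23:31579047-31589230, chr23:31112603-31113277 and chr15:30202578-30203886. A match of these letters is a description and not evidence that the end is used.
HIST1H2AC probe 1: aaaattttttctATTAAAaacttactctgg
HIST1H2BK probe 1: aaaagggcctttAATAAAtaaggtcgaact
H2AFX probe 1: tggactaattttATTAAAgggttttttcct

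The comparisons of the oocyte with each somatic cell type, which share the oocyte arrays, gave similar counts. Of the 37 genes, 20 rose and 13 fell against TH (32.5% and 32.1% of all genes, 64.6% together), 18 rose and 14 fell against GC (30.7% and 37.9%, 68.6% together), and 19 rose and 13 fell against CC (31.8% and 32% of all genes, 63.7% together). Among the array's further transcripts described as histones under other names, 67 in number, 46 rose and 9 fell in the oocyte against the somatic mean, with a median difference of 1.23, where 30.2% of all 26944 transcripts rose and 39.2% fell. Some probes of the histone genes are identical or close to probes of other names. These transcripts may therefore share targets with the histone genes and are not an independent set.

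Between the somatic cells, the counts depended on single arrays and on the scaling. In TH against GC, 1 of 37 was higher (H1FOO) and 15 were lower, against 11.8% and 14.5% of all genes. The lower ones were 10 replication-dependent core genes, 3 linker genes and 2 variants, and the largest differences were those of HIST3H2A and HIST1H1D given above. In TH against CC, 3 were higher and 8 lower (14.4% and 17.4% of all genes), the largest being HIST1H1A, H2AFY2 and HIST1H2AC. In GC against CC, 2 were higher and none lower in limma (4.61% and 5.27% of all genes, 9.88% together), namely H2AFY2 and HIST1H2BK, the second by 1.08 ± 0.30 (SE, limma adjusted p = 0.032). Probe 1 of HIST1H2BK, above background on 1 of the 20 arrays, averaged -5.47 in GC and -7.21 in CC. Its probe 2, above background on all 20, averaged 0.04 in GC and -0.39 in CC. The 16 TH to GC calls and 11 TH to CC calls became 0 and 1 within slide 1, and 1 and 6 within slide 2, with 2 arrays per group each. With the percentile taken over detected probes, TH against GC gave 1 higher and 8 lower, and TH against CC gave 7 higher and 3 lower, the opposite balance, as against 6 and 7 with quantile scaling and 3 and 16 with the array median. The 15 genes lower in TH than in GC became 6 without TH replicate 3 and 7 without TH replicate 1, GC replicate 1 or GC replicate 4, and the 8 lower than in CC became 3 without CC replicate 3, 4 without TH replicate 3 and 16 without TH replicate 2. Over the same contrasts, 3 of 21 genes of an S phase list were lower in TH than in GC and 7 lower than in CC, with none higher in TH, and their part in the histone values was not tested. TH replicate 2 had the highest level of its group for 21 of the 37 histone genes, and GC replicate 4 for 23.

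In CC after 4 h of IVM, 3 of the 37 histone genes rose and 11 fell against CC, where 30.3% of all genes rose and 15.5% fell. The median difference was -0.60, against 0.37 over all genes. The 4 arrays after IVM lay above all 4 CC arrays for 5 histone genes and below them for 11, as happened for 29.1% and 14.9% of all genes. Of the linker genes, 4 of 7 fell and none rose, of the replication-dependent core genes 7 of 22 fell and 1 rose, and of the variant core genes 2 of 8 rose and none fell. The 11 falls became 5 without CC replicate 3, 6 without IVM replicate 4, 7 without CC replicate 1 and 15 without IVM replicate 1. Of the markers of cumulus maturation, HAS2 rose by 7.76 ± 0.40 (SE, limma adjusted p = 3e-06) and AREG, above background on no CC array, was at least 15.4-fold higher (limma adjusted p = 1e-05), whereas PTX3 did not pass the test (-0.11 ± 0.46, limma adjusted p = 0.86). All 4 arrays after IVM were on a slide of their own, so that slide and IVM cannot be told apart.

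**Figure D5:**
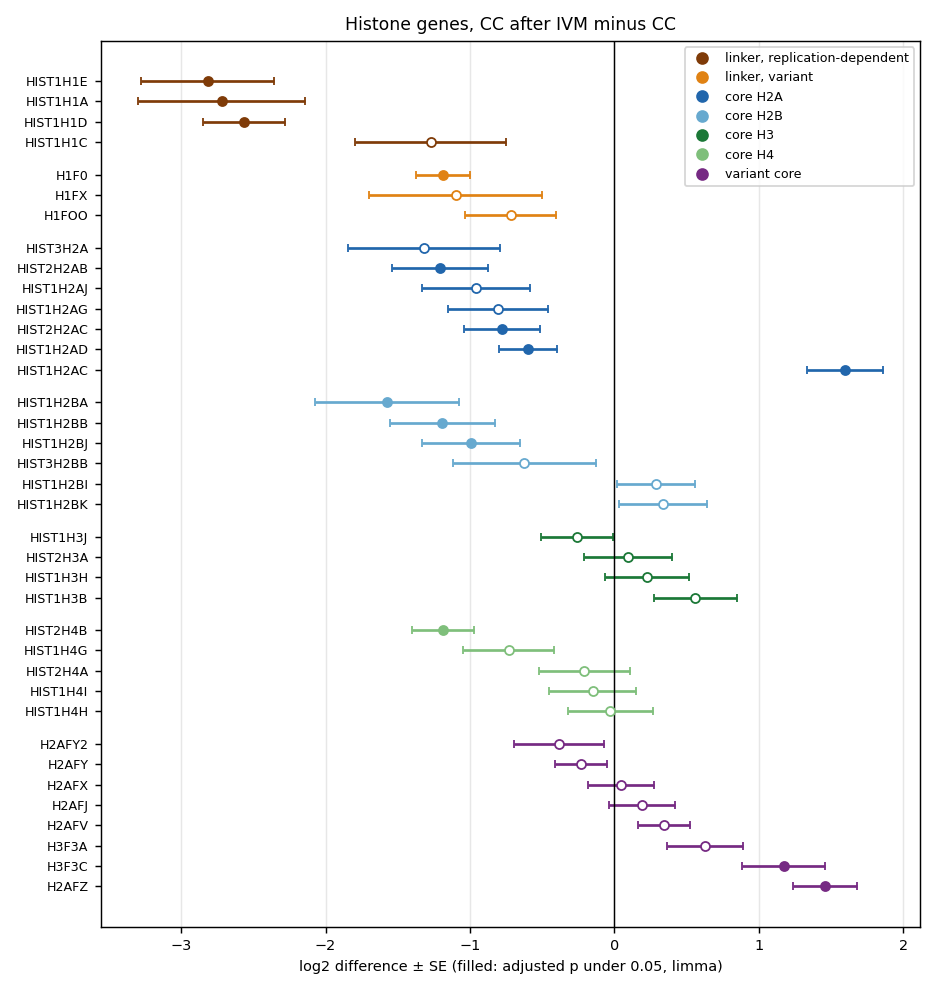
Log2 difference of each of the 37 histone genes between CC after 4 h of IVM and CC, with the standard error of the limma fit (4 arrays per group); filled points have an adjusted p under 0.05. HIST1H1E, HIST1H1A and HIST1H1D lie furthest left, HIST1H1A at -2.72, and HIST1H2AC, H2AFZ and H3F3C are the only filled points right of 0.

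The largest falls were those of linker genes. HIST1H1A lay at -0.74, -3.92, -2.16 and -1.91 after IVM, against 0.17, 0.25, 1.27 and 0.45 in CC, a difference of -2.72 ± 0.58 (SE, limma adjusted p = 0.0055). HIST1H1E lay at -3.44, -5.18, -4.33 and -3.83 against -2.21, -0.87, -1.92 and -0.51, a difference of -2.82 ± 0.46 (SE, limma adjusted p = 0.0014), and both of its transcripts above background fell, by 2.82 and 1.82. The groups did not overlap for either gene, and replicate 2 was the lowest array after IVM for both. HIST1H1A is also a gene of high oocyte level, 5.46 higher in oocytes than in CC, and oocyte markers fell in CC after IVM too. Of the 6, ZP4 (-3.44 ± 0.90), ZP2 (-3.17 ± 0.87), NLRP5 (-2.02 ± 0.63) and ZP3 (-1.24 ± 0.45) fell, with limma adjusted p from 0.015 to 0.049, and GDF9 (-0.75) and BMP15 (-0.21) did not pass the test. Their summed level was -2.64 to -0.84 after IVM and -0.83 to 1.59 in CC, and the part of oocyte RNA in the falls was not tested. HIST1H1D was above background on no array after IVM and on all 4 CC arrays, and was at least 1.5-fold lower (limma adjusted p = 0.00014). H1F0 lay at 1.71, 1.67, 1.19 and 1.38 against 2.71, 2.66, 2.66 and 2.66, a difference of -1.19 ± 0.19 (SE, limma adjusted p = 0.0011). Its probes did not agree. Probe 1 changed by -1.98 (limma adjusted p = 0.00011, fitted over probes), whereas probe 2 did not pass the test (-0.40, limma adjusted p = 0.15). HIST1H1C and H1FX did not pass the test, with differences of -1.27 ± 0.52 (limma adjusted p = 0.071) and -1.10 ± 0.60 (limma adjusted p = 0.16).

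Of the core genes, HIST1H2AC was the only one that rose, to -0.73, -0.43, -1.33 and -0.82 from -2.37, -2.80, -2.60 and -1.92, by 1.60 ± 0.26 (SE, limma adjusted p = 0.0014), without overlap. HIST1H2BA fell by 1.57 ± 0.50 (limma adjusted p = 0.028) and was above background on 2 of 4 arrays after IVM. HIST2H4B lay at -3.17, -3.64, -3.24 and -3.42 against -2.04, -2.22, -2.58 and -1.88, a difference of -1.19 ± 0.21 (SE, limma adjusted p = 0.0024). HIST2H2AB lay at 2.58, 1.05, 2.46 and 2.34 against 3.34, 3.32, 3.56 and 3.04, a difference of -1.21 ± 0.33 (SE, limma adjusted p = 0.019), with replicate 2 far below the other 3 arrays. HIST1H2BB fell by 1.19 ± 0.36 (limma adjusted p = 0.026), and HIST2H2AC by 0.78 ± 0.27 (limma adjusted p = 0.037). For all of these core genes the groups did not overlap. HIST1H2AD (-0.60) and HIST1H2BJ (-0.99, with overlap) fell as well and were named after their values were seen. The H3 genes had differences from -0.26 to 0.56 and the H4 genes other than HIST2H4B from -0.73 to -0.03, and none of them passed the test.

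H2AFZ lay at 6.07, 5.60, 5.60 and 5.57 after IVM against 3.81, 4.27, 4.40 and 4.53 in CC, a rise of 1.46 ± 0.22 (SE, limma adjusted p = 0.00088). H3F3C lay at 5.08, 4.18, 4.12 and 4.09 against 2.62, 3.41, 3.27 and 3.48, a rise of 1.17 ± 0.29 (SE, limma adjusted p = 0.012). Both were higher on every array after IVM, and replicate 1 was the highest for both. Fitted over transcripts, the chromosome 16 locus of H3F3C rose by 1.50 ± 0.28 (SE, limma adjusted p = 0.0031), the chromosome 14 locus by 0.89 ± 0.31 (SE, limma adjusted p = 0.04), and the H3-3B locus of H3F3A by 0.99 ± 0.31 (SE, limma adjusted p = 0.028), whereas the H3-3A locus had a difference of 0.26 ± 0.23 (limma adjusted p = 0.37). Differences of H2AFJ, H2AFV, H2AFX, H2AFY and H2AFY2 lay between -0.38 and 0.34 and did not pass the test. Replicate 1 had the highest level of the 4 arrays after IVM for 29 of the 37 histone genes, and replicate 2 the lowest for 21. Of the 67 further histone transcripts, which may share targets with the histone genes, 1 rose and 18 fell after IVM, with a median difference of -0.49, where 32.4% of all transcripts rose and 14.5% fell.

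Genes that make and end histone mRNA were examined as a list of 24, of which 21 were on the array under their names and CASP8AP2, ERI1 and ARS2 were not found. In the oocyte 16 rose and 5 fell (76.2% and 23.8%, against 32.9% and 38.3% of all genes), with a median difference of 1.36. SLBP, the protein that binds the stem-loop, lay at 4.63, 4.48, 4.54 and 4.67 in oocytes and between -0.24 and 0.84 in the somatic cells, a rise of 4.31 ± 0.17 (SE, limma adjusted p = 2.9e-12). SLBP2, its oocyte form, lay at 2.54, 2.37, 2.70 and 2.50 in oocytes and was above background on no TH or GC array and on 1 CC array, which made it at least 285-fold higher in oocytes (limma adjusted p = 1.3e-13). LSM10 and LSM11, subunits of the U7 particle that cuts histone pre-mRNA, rose by 2.58 ± 0.13 (SE, limma adjusted p = 6.5e-11) and, against somatic cells without signal above background, by at least 2.36-fold (limma adjusted p = 2.5e-08). NPAT, the activator of the histone clusters, fell by 0.58 ± 0.10 (limma adjusted p = 0.00011), and after IVM by 0.80 ± 0.21 (limma adjusted p = 0.016). After IVM, 6 genes of the list rose and 1 (NPAT) fell (28.6% and 4.76%), where 30.3% and 15.5% of all genes did.

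Histone chaperones and deposition factors were a list of 32, all on the array, of which 17 rose and 6 fell in the oocyte (median 0.74), against 32.9% and 38.3% of all genes. NPM2, the nucleoplasmin of the egg, lay at 6.47, 6.25, 6.52 and 6.58 in oocytes and between -6.80 and -1.03 in the somatic cells, a difference of 10.08 ± 0.57 (SE, limma adjusted p = 1.7e-10). The replication-coupled factors rose, ASF1B by 4.77 ± 0.31 (SE, limma adjusted p = 1.2e-09), CHAF1A by 4.53 ± 0.29 (SE, limma adjusted p = 1e-09), and CHAF1B by 2.02 ± 0.28 (SE, limma adjusted p = 9.4e-06). ASF1A, which serves both pathways, rose by 2.88 ± 0.12 (SE, limma adjusted p = 4.2e-12), and NASP, which holds soluble H3 and H4, by 1.19 ± 0.16 (SE, limma adjusted p = 8.2e-06). Of the factors of H3.3, DAXX fell by 0.63 ± 0.15 (limma adjusted p = 0.0016), whereas HIRA (0.05 ± 0.25, limma adjusted p = 0.86) and ATRX (0.09 ± 0.23, limma adjusted p = 0.71) did not pass the test. ANP32E, which removes H2A.Z from chromatin, lay between 2.05 and 2.31 in oocytes and between -0.93 and 0.19 in the somatic cells and rose by 2.43 ± 0.15 (SE, limma adjusted p = 4.3e-10), beside the fall of H2AFZ. NAP1L1, a chaperone of H2A and H2B, fell by 0.92 ± 0.12 (limma adjusted p = 4.3e-06).

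After IVM, 6 of the 32 chaperone genes rose and 6 fell, 18.8% each, where 30.3% of all genes rose and 15.5% fell. CHAF1A fell by 2.37 ± 0.28 (limma adjusted p = 0.00021) and ASF1B by 1.32 ± 0.26 (limma adjusted p = 0.0042), whereas CHAF1B, the partner of CHAF1A in the same complex, rose by 1.48 ± 0.29 (SE, limma adjusted p = 0.0037). CENPA, the H3 variant of the centromere, fell after IVM by 1.39 ± 0.23 (limma adjusted p = 0.0016) and did not pass the test in the oocyte (-0.21 ± 0.26, limma adjusted p = 0.46). HIST4H4 was at most 1 array above background in any group and is given no fold.

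Of 21 genes of S phase and proliferation, all on the array, 14 rose and 1 fell in the oocyte (median 1.41), and after IVM 1 rose and 14 fell (median -1.26). Over all genes 32.9% rose and 38.3% fell in the oocyte, and 30.3% and 15.5% after IVM. In the oocyte, TYMS rose by 2.75 ± 0.18 (SE, limma adjusted p = 1.4e-09), PCNA by 2.01 ± 0.24 (SE, limma adjusted p = 1.5e-06), MCM5 by 1.35 ± 0.28 (SE, limma adjusted p = 0.00049), and RRM2 by 1.00 ± 0.33 (SE, limma adjusted p = 0.013). MCM2 (0.80 ± 0.68), MKI67 (0.53 ± 0.33) and TOP2A (-0.11 ± 0.30) did not pass the test in limma. After IVM, MCM5 lay at 1.06, 0.16, 1.04 and 0.42 against 3.50, 3.90, 3.79 and 3.89 in CC, a difference of -3.10 ± 0.25 (SE, limma adjusted p = 2.3e-05). MCM2 (-3.22 ± 0.49), TOP2A (-1.94 ± 0.29), TYMS (-1.07 ± 0.24) and MKI67 (-0.92 ± 0.23) fell too, and RRM2 rose by 1.45 ± 0.23 (SE, limma adjusted p = 0.0012). PCNA did not pass the test after IVM (-0.05 ± 0.27, limma adjusted p = 0.89). The fall of replication-dependent histone genes in CC after IVM thus stood beside a fall of most genes of this list, whose part in it was not tested.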

How the data were processed

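Levels were measured in 20 samples on a custom bovine 1-colour Agilent array. Per the file headers, Agilent Feature Extraction 10.7.3.1 gave the deposited intensity of each spot after background subtraction. The authors' deposited log2 table equalled log2 of the median spot signal minus the array's median, within 5e-09, and served as an alternative. Here log2 of the processed signal minus the 75th percentile of each array was used, taking each gene's median spot and no filter on dim genes. limma 3.58.1 (R 4.3.3) was fitted to all 22550 genes with Benjamini-Hochberg adjustment, over 16 arrays for the oocyte contrast with the averaged TH, GC and CC, the F-test and the pairs, and over 8 arrays for CC after IVM against CC. The number of arrays limits the precision, as each group held 4 arrays. Bounds used, per array, the dimmest probe called well above background.

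Members and gene lists (histone mRNA processing, chaperones, S phase, histone genes outside the rule and markers) were chosen with earlier results of these data known. Named were all linker and variant genes, the 5 core genes with the largest rise and fall without overlap in either contrast, the 3 largest of each somatic pair, and fixed genes of the lists, with exceptions stated. Symbols for 21 of 48 transcripts came from RefSeq (ARS-UCD2.0), used for names only. The script was tested on simulated data with 200 changed genes of 22550. In the oocyte contrast 34.5% of genes changed by 1 and 88.0% of those changed by 2 on the log2 scale were recovered, and in the IVM contrast 0% and 74.5%. In the data 71.3% of all genes were called in the oocyte contrast and 45.8% in the IVM contrast. With so many called, the adjustment is less strict than in the simulation, so these shares do not give the recovery in the data. Deviations from the group means correlated over 0.1 in all 4 same-numbered pairs of TH and GC (0.117 to 0.340). TH replicates 2, 3 and 4 matched their own number in GC best, and TH replicate 1 did not. These pairs also share slides, and the part of the slide was not tested. The numbers may thus pair the samples of TH and GC, but the labels give no pairing. No other 2 groups had correlations over 0.1 in every pair (-0.147 to 0.217 over their pairs). Alternatives covered scaling, background correction, probe summary, filter, slide, replicate number, variance model and leaving out each array.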

Additional observations from a re-analysis of the deposited data

Results flagged for a closer look

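Of 185 sets of 4 arrays (37 histone genes in 5 groups), 16 held an array whose gap to the nearest other array exceeded Dixon's critical share of the range of its group. Chance flags about 1 in 20 groups. By group there were 2 in TH, 1 in GC, 5 in CC, 4 in CC after IVM and 4 in oocytes.

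In TH, replicate 2 was apart for HIST1H2AJ (5.11) and HIST3H2BB (-1.36), above the other 3 arrays in both. In GC, replicate 4 was high for H2AFX (3.56). In CC, the array apart was replicate 3 for HIST1H2BA (-3.13), replicate 1 for H1F0 (2.71), replicate 2 for H1FX (0.72) and H2AFJ (4.08), and replicate 4 for H2AFY2 (-1.75). H2AFJ and H2AFY2 were low there and the others high. After IVM, replicate 2 was low for HIST2H2AB (1.05), replicate 3 was high for H1FX (-0.88), and replicate 1 was high for H2AFZ (6.07) and H3F3C (5.08). In oocytes, replicate 1 was high for HIST1H3J (2.09), H3F3A (5.19) and H3F3C (3.81), and replicate 2 was low for HIST1H1A (5.68).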

How the results depend on the processing

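In the oocyte, 30 of the 34 calls of histone genes kept their call and sign under every alternative, and after IVM 5 of 14 did (H2AFZ, HIST1H2AC, HIST1H1A, HIST1H1E and HIST2H4B). Each group lay on few arrays, slide and IVM cannot be told apart, and for IVM the slide as a fixed block and fits within slide 1 or slide 2 could not be run. The random slide block and the transcript-level fit were chosen after seeing the data. Causes of the changes below were not tested.

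After IVM, 3 histone genes rose, against 5 with normexp and 6 with the random slide block, and 11 fell, against 19 with the deposited table, 18 with the random block and 6 with every probe tested on its own. The 16 calls between TH and GC became 9 with the percentile over detected probes, 7 with all 20 arrays, 0 within slide 1 and 1 within slide 2. The 11 between TH and CC became 19 with the array median, 17 with the deposited table, 1 within slide 1 and 6 within slide 2. The 2 between GC and CC became 1 with the array median, the brightest probe, all 20 arrays or slide 1, and 0 within slide 2. The TH to CC split was 7 higher and 3 lower with detected probes, 3 and 16 with the array median, and 6 and 7 with quantile scaling, and the TH to GC split 1 and 8 with detected probes.

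Of the processing genes, 6 rose after IVM, against 13 with normexp, and 1 fell, against 2 with detected probes, normexp or all 20 arrays, 6 with the deposited table, 0 with the brightest probe and 3 with the random block. Of the chaperones, 6 fell in the oocyte, against 10 with normexp. After IVM 6 chaperones rose, against 12 with normexp, 3 with the deposited table and 10 with the random block, and 6 fell, against 14 with the deposited table. Of the S phase genes, 1 fell in the oocyte, against 0 with the array median, all 20 arrays, slide 1 or slide 2 and 3 with normexp, and 1 rose after IVM, against 3 with normexp.

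Leaving out each array gave 20 to 20 rises and 13 to 14 falls in the oocyte, 34 to 36 calls of the F-test, 33 to 34, 31 to 34 and 30 to 32 calls of the oocyte against TH, GC and CC, 7 to 20 between TH and GC, 6 to 20 between TH and CC, and 1 to 3 between GC and CC. After IVM it gave 3 to 3 rises and 5 to 15 falls, with 7 falls without CC replicate 1, 5 without CC replicate 3, 6 without IVM replicate 4 and 15 without IVM replicate 1. For the processing genes it gave 16 to 16 and 5 to 5 in the oocyte and 6 to 7 and 1 to 3 after IVM, for the chaperones 17 to 19 and 6 to 7, and 4 to 6 and 5 to 6, and for the S phase genes 14 to 15 and 1 to 1, and 1 to 1 and 13 to 14.

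Direction reversed for HIST1H1E (2.24) and H3F3A (-0.80) in the oocyte with the brightest probe, and for HIST1H2BA (0.084) and HIST1H1D (0.059) after IVM with normexp. Over all genes, the oocyte difference had a median of -0.52, against -0.01 with quantile scaling, -0.34 with the array median, -0.73 with detected probes, -1.30 with normexp and -0.63 with the deposited table. Its 7425 rises and 8645 falls became 5416 and 15127 with normexp and 6849 and 11792 with detected probes. After IVM the median of all genes was 0.37, and 0.01 with quantile scaling, where 6824 rises and 3505 falls became 2788 and 3667.

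With the replicate number as a block, the 16 calls between TH and GC, whose numbers may pair the samples, became 12 (1 higher and 11 lower). The 11 between TH and CC became 10, and the 2 between GC and CC stayed at 2. After IVM, where the numbers gave no pairing, 3 histone genes rose and 8 fell with the block, and 3 chaperones rose. No other count moved by over 1.5 times. In 14 of the 40 pairings an array of 1 group matched its own number best in the other.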
